A study of Mus musculus with 2 samples.

Results

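Pi16, Dpp4, Sema3c, Anxa3 and Cd55 are genes that mark adventitial fibroblasts in many mouse organs, and their levels and co-detection were examined here in mouse skin. They are 5 of the 32285 genes of the count matrix and were followed in fibroblast barcodes, taken as barcodes with 10 or more unique molecular identifiers (UMIs) of Col1a1, Col1a2, Col3a1 and Dcn together and 0 UMIs of Ptprc. Col1a1, Col1a2 and Col3a1 code for fibrillar collagen chains, Dcn for the matrix proteoglycan decorin and Ptprc for the leukocyte antigen CD45. Of 8127 barcodes with 200 or more genes and at most 20% mitochondrial UMIs, 3609 (44.4%) met this rule and 4518 did not. The 5 genes were chosen because of their levels in these barcodes, so their excess over the other barcodes is a description, with no test.

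The skin came from C57BL/6 mice aged 8 weeks and was dissociated with Liberase and DNase. Part of the mice were depleted of neutrophils for 2 days in a row, at rest, by an anti-Ly6G antibody of clone 1A8, and the others served as controls. What the control animals received and how many animals were used are not given in the sources used here. Cells of both arms were tagged with hashtag antibodies and pooled into 1 RNA library, and the matrix holds 0 hashtag rows, so no barcode could be assigned to depleted or control skin and every value describes the pool. Ly6g itself had 2 UMIs in the whole matrix, too few to check the depletion. With 1 library there is no replicate, no p-value is given, and the 95% intervals (exact Poisson for UMIs, exact conditional for ratios, Clopper-Pearson for shares) cover counting error only.

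The fibroblast barcodes held a median of 11424 UMIs and the other barcodes 8103 UMIs, with median mitochondrial shares of 1.01% and 2.12%. Scrublet called 103 of the fibroblast barcodes (2.85%) doublets. Of the 4518 other barcodes, 258 also held 10 or more UMIs of the collagen genes and Dcn and stood outside only because of Ptprc.

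Adventitial fibroblasts line the outer layer of vessels and the connective tissue between organ compartments, and cells with the same genes are found in the deep dermis and fascia of mouse skin. They are often described as a reserve population that can give rise to more specialised fibroblasts. Pi16, peptidase inhibitor 16, belongs to the CAP family of cysteine-rich proteins. Dpp4 is a membrane protease that trims the ends of chemokines and other peptides. Sema3c is a secreted guidance ligand that acts through neuropilin and plexin receptors. Anxa3 binds phospholipids in the presence of calcium, and Cd55, decay-accelerating factor, protects cells from complement.

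On GRCm38 (mm10), Pi16 (ENSMUSG00000024011.17) lies at chr17:29317680-29330593 on the plus strand and Dpp4 (ENSMUSG00000035000.8) at chr2:62330073-62412231 on the minus strand. Sema3c (ENSMUSG00000028780.13) at chr5:17574281-17730268 and Anxa3 (ENSMUSG00000029484.12) at chr5:96793339-96845966 are both on the plus strand. Cd55 (ENSMUSG00000026399.12) lies at chr1:130439027-130462744 on the minus strand, next to its copy Cd55b (ENSMUSG00000026401.15) at chr1:130388537-130423009. All 6 are annotated as protein coding.

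The 250 bases before the RefSeq transcription start (GRCm38.p6) of 4 of the 5 genes are shown because the genes are detected together in the same barcodes. They are read 5′ to 3′ on the gene's strand, and capitals mark the motifs found among the TATA box (TATAAA), the GC box (GGGCGG), the CCAAT box (CCAAT), the E box (CACGTG) and the AP-1 site (TGACTCA), all sought on both strands. The promoters lie at chr17:29318632-29318881 (Pi16, plus), chr2:62412232-62412481 (Dpp4, minus), chr5:17574566-17574815 (Sema3c, plus) and chr1:130462745-130462994 (Cd55, minus). By the GENCODE positions given above, the windows of Pi16 and Sema3c lie inside the annotated genes, past their first base. Those of Dpp4 and Cd55 lie directly before theirs.
Pi16: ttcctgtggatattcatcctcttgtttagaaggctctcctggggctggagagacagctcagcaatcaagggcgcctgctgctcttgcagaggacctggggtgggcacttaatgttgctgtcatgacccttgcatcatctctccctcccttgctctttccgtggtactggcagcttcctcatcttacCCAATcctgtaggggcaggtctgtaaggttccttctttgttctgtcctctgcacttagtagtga
Dpp4: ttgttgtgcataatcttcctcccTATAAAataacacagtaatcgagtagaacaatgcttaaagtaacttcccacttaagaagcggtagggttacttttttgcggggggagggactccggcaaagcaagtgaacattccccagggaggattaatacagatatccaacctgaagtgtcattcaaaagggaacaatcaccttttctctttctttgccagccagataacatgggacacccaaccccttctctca
Sema3c: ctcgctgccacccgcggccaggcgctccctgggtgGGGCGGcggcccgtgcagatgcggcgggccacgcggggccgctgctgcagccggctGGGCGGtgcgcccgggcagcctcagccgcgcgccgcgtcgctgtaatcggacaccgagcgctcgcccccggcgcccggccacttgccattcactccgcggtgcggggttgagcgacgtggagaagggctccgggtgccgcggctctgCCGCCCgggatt
Cd55: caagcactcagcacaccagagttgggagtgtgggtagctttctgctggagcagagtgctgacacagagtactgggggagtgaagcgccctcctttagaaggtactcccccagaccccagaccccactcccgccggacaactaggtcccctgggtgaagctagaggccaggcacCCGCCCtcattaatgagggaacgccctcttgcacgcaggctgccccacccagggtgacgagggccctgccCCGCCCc
No motif was shared by all 4 promoters. Pi16 held CCAAT at position -64 from the start, Dpp4 held TATAAA at -227, Sema3c held GGGCGG at -215, -159 and -12, and Cd55 held it at -77 and -7. Among the 32851 promoters of the table, in windows of the same length, CCAAT stood in 33.8%, TATAAA in 12.4% and GGGCGG in 32.7%. CACGTG (6.02% of promoters) and TGACTCA (4.46%) were in 0 of the 4. The hits did not overlap each other. Pairwise identity among the 4 sequences ranged between 42.2% (Dpp4 and Sema3c) and 52.5% (Sema3c and Cd55), against 63.7% between Cd55 and Cd55b. Anxa3 is named without a promoter.

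All 5 genes were above 2-fold in fibroblast barcodes over the other barcodes, a direction fixed by their choice. Of 15408 genes with 50 or more UMIs, 16.8% were. Levels are CPM, the UMIs of a gene scaled by the UMI total of the barcodes summed. Pi16 reached 1715 CPM (1703 to 1727) in fibroblast barcodes against 129 CPM (126 to 133) in the others, a ratio of 13.3 (12.9 to 13.6). Dpp4 was at 590 CPM in fibroblast barcodes and 68.3 CPM in the others, a ratio of 8.64 (8.31 to 8.99). Sema3c had the smallest excess of the 5, with 699 CPM in fibroblast barcodes, 201 CPM in the others and a ratio of 3.49 (3.40 to 3.57). Anxa3 was at 1098 CPM in fibroblast barcodes and 99.03 CPM in the others, a ratio of 11.1 (10.7 to 11.5). Cd55 was at 500 CPM in fibroblast barcodes and 81.4 CPM in the others, a ratio of 6.15 (5.93 to 6.38). By size of ratio the genes ranked 168 (Pi16), 342 (Anxa3), 557 (Dpp4), 889 (Cd55) and 1543 (Sema3c) of the 15408.

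The levels of Pi16 and Anxa3 outside the fibroblast barcodes depended on the 258 barcodes with both collagen and Ptprc UMIs, and that of Sema3c depended little on them. Against the 4260 barcodes with fewer than 10 UMIs of the 4 matrix genes, the ratio was 80.1 for Pi16, 35.6 for Anxa3, 17.3 for Dpp4, 9.08 for Cd55 and 4.06 for Sema3c. Without the called doublets the ratio of Pi16 was 20.6. At the edge of the rule the genes did not behave alike. In 46 barcodes with 10 to 14 UMIs of the 4 genes, just inside the threshold, Pi16 was at 302 CPM and Dpp4 at 390 CPM. In 89 barcodes with 5 to 9 UMIs, just outside, Pi16 was at 12.5 CPM and Dpp4 at 286 CPM.

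Each of the genes was present in most fibroblast barcodes. Pi16 had a median of 15 UMIs per fibroblast barcode, with 0 at the 10th percentile and 48 at the 90th. The medians were 6 UMIs for Dpp4, 6 for Sema3c, 11 for Anxa3 and 4 for Cd55, and the 10th percentile was 0 for each. In the other barcodes the median was 0 UMIs for all 5. As counted, 84.8% (Cd55) to 87.8% (Pi16) of fibroblast barcodes held a UMI, against 19.1% (Pi16) to 32.9% (Sema3c) of the others.

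After each barcode was thinned to 1000 UMIs, which leaves out 11 fibroblast and 112 other barcodes, all shares were lower. Pi16 was then detected in 63.3% of fibroblast barcodes and 5.58% of the others, and Anxa3 in 55.6% and 5.24%. Dpp4 was in 39.5% of fibroblast barcodes and 5.86% of the others, and Cd55 in 32.4% and 6.04%. Sema3c was in 41.3% of fibroblast barcodes and 12.1% of the others, the highest of the 5 shares outside fibroblasts. Basal keratinocyte-like barcodes, taken as a type without Pi16, held it in 1.40% at this depth.

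Clustering of all 8127 barcodes without the 5 genes showed which other cells carry them. Among the named classes the fibroblast-like one, with 3879 barcodes, had the highest level of every gene, at 1685 CPM for Pi16, 591 CPM for Dpp4, 678 CPM for Sema3c, 1078 CPM for Anxa3 and 489 CPM for Cd55. The orders below it differed from gene to gene. Beside CPM, each gene's UMIs were set against the UMIs of the 4 matrix genes in the same barcodes, because fibroblast RNA carried into other droplets would keep the proportion found in fibroblast barcodes.

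**Figure D1:**
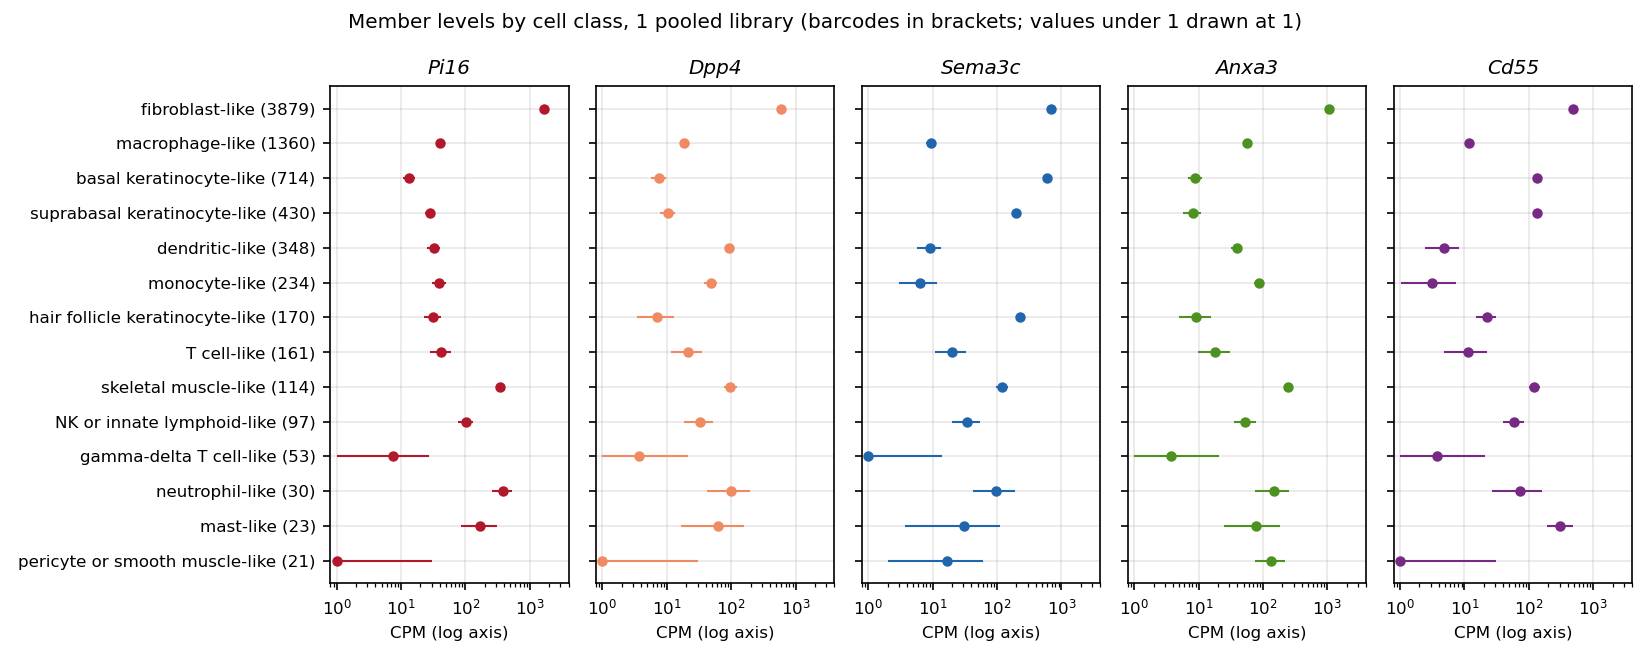
Level of each gene in CPM (log axis, 95% Poisson intervals) in the named cell classes of the pooled library, with the number of barcodes in brackets. The fibroblast-like class lies farthest right in all 5 panels, Sema3c at 601 CPM in basal keratinocyte-like barcodes lies close to it, and Pi16, Dpp4 and Cd55 are at 0 (drawn at 1) in the 21 pericyte or smooth muscle-like barcodes.

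Sema3c, the guidance ligand, was the gene most shared with the epidermis. It stood at 678 CPM (670 to 686) in the fibroblast-like class, against 601 CPM (583 to 618) in basal keratinocyte-like barcodes, of which 87.5% had a UMI. In the basal barcodes its proportion to the 4 matrix genes was 186 times that of fibroblast barcodes. Suprabasal keratinocyte-like barcodes held 198 CPM and hair follicle keratinocyte-like ones 227 CPM. Restricted to barcodes with fewer than 10 UMIs of the matrix genes, the basal level was 597 CPM, the suprabasal level 195 CPM and the hair follicle level 217 CPM. An unnamed cluster of 68 barcodes, led by Skint5, Abca12, Skint6, Tuft1 and Tprg, held Sema3c at 892 CPM. Another unnamed cluster of 81 barcodes, with Ccl21a, Sfrp5, Lcn2 and Fabp4 among its leading genes and a median of 2839 UMIs, held it at 1033 CPM, above every named class. Of these 81 barcodes 35 (43.2%) met the fibroblast rule, and the cluster also held Dpp4 at 569 CPM, Anxa3 at 563 CPM, Cd55 at 460 CPM and Pi16 at 283 CPM. The Sema3c peak in it depended on the clustering. All 5 genes were highest in a cluster with 5000 or more CPM of the matrix genes at resolutions 0.5 and 2, against 4 of 5 at resolution 1.

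Cd55, the complement regulator, was also an epidermal and mast-like transcript. Basal keratinocyte-like barcodes held it at 133 CPM and suprabasal ones likewise at 133 CPM, and the intervals overlap (125 to 141 and 123 to 143). The 23 mast-like barcodes held 310 CPM (189 to 478), with a UMI in 56.5% of them. In the 22 of these with fewer than 10 matrix UMIs it was at 358 CPM, and Pi16, Dpp4 and Sema3c were at 0.

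Dpp4, the protease, was found in dendritic-like barcodes at 92.3 CPM (80.9 to 105), with a UMI in 38.5%. Its proportion to the matrix genes was 27.2 times that of fibroblast barcodes. Monocyte-like barcodes held Dpp4 at 47.8 CPM. Anxa3, the annexin, was at 87.4 CPM (73.5 to 103) in monocyte-like and 56.6 CPM (52.8 to 60.7) in macrophage-like barcodes, at 9.83 and 5.88 times the fibroblast proportion. In the 21 pericyte or smooth muscle-like barcodes Anxa3 was at 133 CPM (76.2 to 216), with a UMI in 52.4%.

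Over whole named classes the proportion of Pi16 to the matrix genes differed. It lay between 0 (pericyte or smooth muscle-like) and 3.26 times (dendritic-like) that of fibroblast barcodes. Whether Pi16 UMIs outside fibroblasts were carried over was not tested. Pi16 was at 348 CPM in skeletal muscle-like barcodes, 15 of which met the fibroblast rule. With fewer than 10 matrix UMIs it was at 11.5 CPM there, 31.2 CPM in macrophage-like and 8.86 CPM in basal keratinocyte-like barcodes. The highest level among such barcodes was that of the neutrophil-like class, where 13 UMIs in 29 barcodes gave 185 CPM (98.5 to 316). That is 24.0 times the fibroblast proportion, but over only 7 matrix UMIs, a number kept low by the choice of barcodes. The whole neutrophil-like class, with 30 barcodes and 178 matrix UMIs, was at 2.25 times. In the 21 pericyte or smooth muscle-like barcodes Pi16, Dpp4 and Cd55 had 0 UMIs, with intervals that reach 30.7 CPM for each.

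Dpp4 was also found without Pi16. A cluster of 369 barcodes led by Dcc, Fut9, Crabp1, Slc26a7 and Notum took the fibroblast-like name from 4 of 6 markers, yet only 52 of its barcodes met the fibroblast rule and the median over all of them was 2 matrix UMIs. Dpp4 was at 367 CPM (341 to 395) in this cluster and Pi16 at 28.1 CPM (21.1 to 36.5). Sema3c, Anxa3 and Cd55 were at 17.9, 18.9 and 30.1 CPM. Of the 369 barcodes 217 (58.8%) held Dpp4 and no Pi16. In the 52 barcodes inside the rule Dpp4 was at 352 CPM, and in the 317 outside it at 371 CPM.

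Within the fibroblast barcodes the 5 genes were detected together. For this, barcodes were thinned to 5000 UMIs, which kept 3202 and left out 407. Of the 3202, 1801 (56.2%, 54.5 to 58.0) held all 5 genes, 695 (21.7%) held 4 and 336 (10.5%) held 3. There were 299 barcodes with 1 or 2 of the genes and 71 (2.22%, 1.74 to 2.79) with none. At this depth the genes therefore did not set apart a small adventitial subset, as their name would have it, and the fibroblast barcodes without them were the minority. These shares depend on depth. Without thinning, 71.2% of the 3609 held all 5, and at 2500 UMIs 29.3% held all 5 and 5.65% held none.

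In all 10 pairs each gene was found in a larger share of the barcodes with the other gene than of those without it. The share of other gene pairs for which this holds was not computed, so the count of 10 is a description. Dpp4 was in 88.5% of barcodes with Pi16 and 52.3% of those without it. Sema3c was in 86.0% of barcodes with Pi16 and 47.7% of those without it. Anxa3 was in 93.3% and 54.5% of these barcodes, and Cd55 in 80.5% and 49.5%. The widest gap was that of Dpp4 by Anxa3, 89.7% with Anxa3 and 38.4% without it. The narrowest was that of Anxa3 by Cd55, 91.9% with Cd55 and 74.97% without it.

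Levels moved with detection. The other 4 genes were higher in each successive class of Pi16 UMIs. In 444 thinned barcodes with 0 Pi16 UMIs Dpp4 was at 259 CPM, Sema3c at 216 CPM, Anxa3 at 373 CPM and Cd55 at 200 CPM. In 532 barcodes with 3 to 5 Pi16 UMIs they were at 576, 579, 982 and 448 CPM in the same order of genes. In 390 barcodes with 21 or more they were at 826, 1226, 1601 and 709 CPM. Barcodes of 1 library share its chemistry and depth, so these relations are descriptions.

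Each gene was also read by how many of the other 4 were detected. The 5 genes were chosen together for their levels in these barcodes, so these shares are a description. The 71 barcodes with none of the 5 are among those with 0 of the other 4 for every gene. Other genes were not split this way. Where 2 or more of the other 4 genes were detected, Pi16 was found in 90.6% (89.5 to 91.6) of 2928 barcodes, against 26.0% (17.6 to 36.0) of 96 barcodes with 0 of the other 4. Dpp4 was found in 87.9% and 23.7% of the corresponding barcodes, Sema3c in 85.0% and 22.0%, Anxa3 in 92.5% and 26.0%, and Cd55 in 79.5% and 30.4%. In CPM the ratio between these barcodes was 13.4 (10.6 to 17.1) for Pi16 and 6.58 (4.84 to 9.17) for Cd55, the highest and the lowest of the 5.

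**Figure D2:**
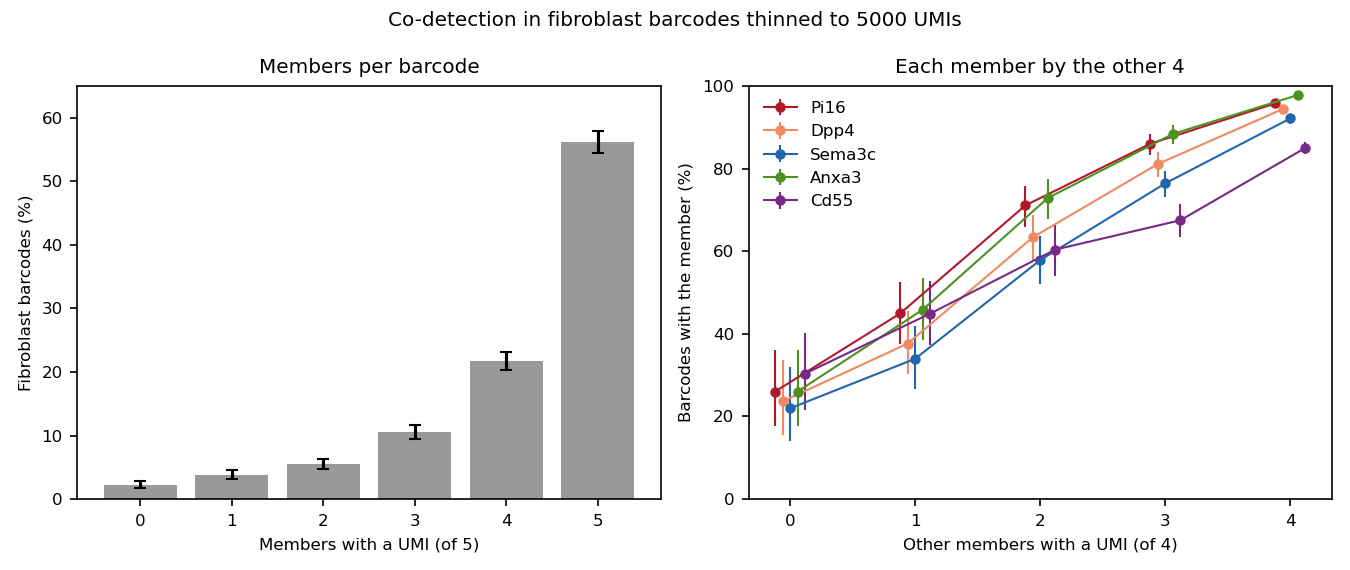
Fibroblast barcodes thinned to 5000 UMIs. Left, share of barcodes by the number of the 5 genes with a UMI; right, share of barcodes with each gene by how many of the other 4 were detected (95% Clopper-Pearson intervals). All 5 genes were found in 56.2% of barcodes, and each gene's share was higher at every step, up to 97.8% for Anxa3 and 85.0% for Cd55.

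Clustering the fibroblast barcodes without the 5 genes gave 14 subsets, numbered by size and described here by their leading genes. In 9 subsets with 2649 barcodes (73.4%) all 5 genes stood at or over 50% of their level in all fibroblast barcodes. In 3 subsets with 474 barcodes (13.1%, 12.05 to 14.3) all 5 stood under 50%, and 2 subsets were mixed. Pi16 averaged 1910 CPM in the 9 subsets and 484 CPM in the 3, and Anxa3 1265 and 201 CPM. Subset 11, led by the keratinocyte gene Abca12 (71 barcodes, 48 called doublets), subset 12, led by the muscle gene Csrp3 (28, 25) and subset 13, led by the mast cell gene Cpa3 (20, 10), are among the 9. In subset 13 macrophage markers summed to 2180 CPM and mast cell markers to 1579 CPM.

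The subset with the highest levels over the 5 genes was subset 4, with 287 barcodes (7.95% of fibroblasts) and 0 called doublets. It was led by Slc35f1, Adamts16, Ccnb1ip1, 4930438E09Rik and Gm765. It held Sema3c at 1700 CPM (1655 to 1745) and Dpp4 at 1123 CPM (1087 to 1160), the highest of all subsets for both. Pi16 was at 2563 CPM, Anxa3 at 1357 CPM and Cd55 at 766 CPM. Ebf2, a transcription factor of adipogenic and adventitial precursors, was at 1146 CPM there, against at most 446 CPM in the other 13 subsets. Of its 262 barcodes that could be thinned, 99.2% held 3 or more of the 5 genes. Of 12912 genes with 50 or more UMIs, 5.69% were 2-fold or more higher in subset 4 than in the other fibroblast barcodes, and 2 of the 5 genes were, Sema3c at 2.76 and Dpp4 at 2.06. Pi16, Anxa3 and Cd55 were at 1.56, 1.26 and 1.60. Its share moved with the clustering and reached 20.6% at a coarser resolution.

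No subset was highest for all 5. Pi16 peaked at 2979 CPM (2917 to 3043) in subset 3, with 334 barcodes, led by Mrgprg, Gsta3, Ces1d, Tmem28 and Chst1. Cd55 peaked at 814 CPM (794 to 834) in subset 1, with 584 barcodes, led by Adamts8, the cytokine gene Csf2, Reln, 1700030N03Rik and Sv2c. Subset 4 followed for Cd55 at 766 CPM (736 to 797), with an overlapping interval. Anxa3 peaked at 1509 CPM (1468 to 1551) in subset 6, with 249 barcodes, led by Hs3st5, Kit, Galnt13, Gm32014 and Il1rapl2. For Anxa3, subsets 0, 1 and 4 followed at 1363, 1365 and 1357 CPM, with overlapping intervals.

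The inflammatory and interferon subsets carried the genes too. Subset 0, with 624 barcodes, was led by the pattern recognition gene Ptx3, the chemokines Cxcl10 and Cxcl2, the cytokine Il6 and the cyclooxygenase Ptgs2. It held Pi16 at 2096 CPM, Anxa3 at 1363 CPM and Sema3c at 553 CPM. Inflammatory genes were not particular to it. In subset 9, where all 5 genes were low, Il6 was at 675 CPM against 400 CPM in subset 0. Ptx3, Cxcl10, Cxcl2 and Ptgs2 were lower in subset 9 than in subset 0. Subset 8, with 220 barcodes, was led by the interferon-stimulated genes Oas3, Ifit3b, Ifi206, Ifi213 and Ifit3. In it Pi16 was at 1530 CPM and Dpp4 at 533 CPM, and Sema3c at 323 CPM lay under 50% of the fibroblast level. Subset 2, with 452 barcodes and led by Kctd16, Ndst3, Cngb3, Trdn and Kcnc2, had Dpp4 at 711 CPM with Pi16 at 1085 CPM.

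**Figure D3:**
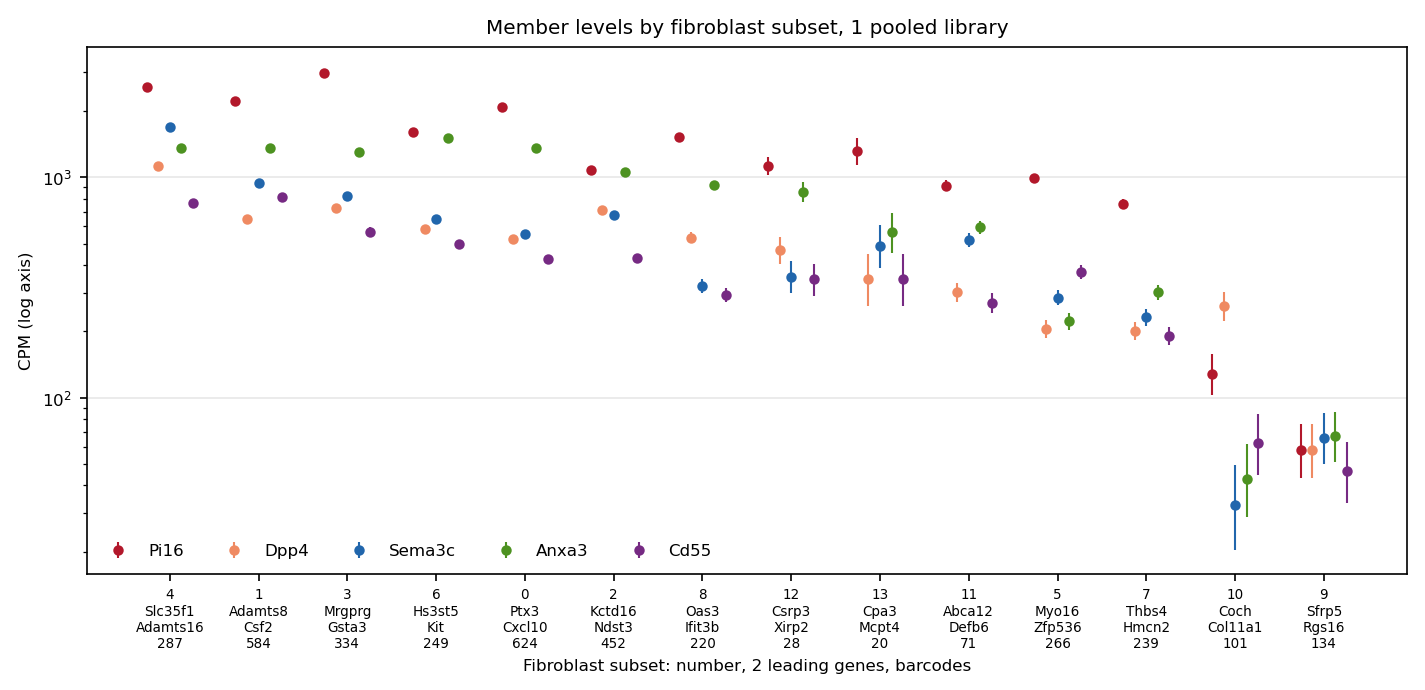
Level of each gene in CPM (log axis, 95% Poisson intervals) in the 14 fibroblast subsets, ordered by the mean log2 ratio of the 5 genes to all fibroblast barcodes. Subset 4 stands first, subsets 7, 10 and 9 last, and in subset 10 Dpp4 at 260 CPM lies above the other 4 genes.

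The subsets with low levels differed in how the genes fell away. Subset 9, with 134 barcodes, had the Wnt inhibitor Sfrp5, Rgs16, the complement inhibitor vitronectin (Vtn) and Spp1 among its leading genes. All 5 genes lay there between 46.5 CPM (Cd55) and 66.9 CPM (Anxa3). Subset 10, with 101 barcodes, was led by Coch, Col11a1, Ramp3, Stac and Prdm1, and Crabp1, a retinoic acid-binding protein gene, was at 1544 CPM in it. Dpp4 stood at 260 CPM (223 to 301) in subset 10, Pi16 at 129 CPM (103 to 159), Cd55 at 62.1 CPM, Anxa3 at 42.9 CPM and Sema3c at 32.5 CPM. Subset 7, with 239 barcodes and led by Thbs4, Hmcn2, Meox1, Bmp5 and Col8a1, held intermediate levels, with Pi16 at 757 CPM and Dpp4 at 201 CPM. In subset 5, with 266 barcodes and led by Myo16, Zfp536, Slc27a6, Nell1 and Aldh3a1, Pi16 was at 997 CPM and Cd55 at 372 CPM, both over 50% of the fibroblast level, while Anxa3 at 222 CPM and Dpp4 at 206 CPM were under it.

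Across the 14 subsets Pi16 had a Pearson correlation of log2(CPM + 1) of 0.96 with Cd55, 0.92 with Anxa3, 0.91 with Sema3c and 0.84 with Dpp4. Among 11608 genes with 100 or more UMIs, the 8 most like Pi16 by this measure were Cd55, the actin-binding gene Dbn1 (0.96), the glycosyltransferase gene Galnt16 (0.94), the lipase gene Mgll (0.94), 1700019D03Rik, Mcrs1, the elastin crosslinking gene Loxl1 (0.93) and the TGF-beta receptor gene Tgfbr2 (0.93). Tgfbr2 ranged between 212 and 1005 CPM over the subsets. Anxa3 ranked 12, Sema3c 18 and Dpp4 73 of the 11608, so genes outside the 5 followed Pi16 more closely. Pi16 was lowest in subsets 9 and 10, at 57.8 and 129 CPM, and correlations without these subsets were not computed. The points are subsets of 1 library that share depth and chemistry.

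To describe what else the genes' carriers express, the 2832 thinned barcodes with 3 or more of the 5 genes (carriers) were set against the 71 with 0 (non-carriers). Among 10786 genes with 50 or more UMIs, 11.5% were 2-fold or more higher and 10.4% 2-fold or more lower in carriers, and the median log2 ratio was -0.06. Calls of 2-fold had 0.5 counts added to each group, while the ratios printed had none. A gene with 0 UMIs in non-carriers could thus be called higher with a bound under 2-fold, as Cdh2 was with 1.65. The share of 11.5% includes such genes. Of the non-carriers 31 (43.7%) were in subset 9, 18 (25.4%) in subset 7 and 17 (23.9%) in subset 10, while these subsets held 8, 121 and 7 of the carriers. Before thinning, carriers had a median of 12613 UMIs and non-carriers 8657 UMIs, with mitochondrial shares of 0.946% and 1.39%. The part of depth in the differences below was not tested beyond the thinning.

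Other genes known from adventitial fibroblasts of various mouse organs were higher in carriers almost throughout. Of 35 such genes 32 were 2-fold or more higher, 1 was lower and 2 were neither, with a median log2 ratio of 1.71, or 1.61 with genes at 0 in non-carriers set to a floor of 3 counts. Stmn4 counted as higher only with 0.5 counts added and not at that floor. The carriers were chosen by genes that are known to go with this list. The list itself was chosen with earlier results of these data known, so the count is a description and no independent check. Smpd3, a sphingomyelinase, was at 634 CPM in carriers and 14.1 CPM in non-carriers, a ratio of 45.0 (19.3 to 139). Akr1c18, a steroid-metabolising enzyme, was at 360 CPM in carriers and 5.63 CPM in non-carriers (64.0, 17.7 to 528). Pla1a, a phospholipase, was at 598 and 25.4 CPM, a ratio of 23.6 (12.4 to 51.6), and Efhd1, a calcium-binding protein, had a ratio of 29.9 (8.26 to 247).

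Receptors and regulators in the list followed. Ackr3, a scavenging chemokine receptor that removes Cxcl12, was at 610 CPM in carriers and 47.9 CPM in non-carriers (12.7, 7.96 to 21.9). Creb5, a transcription factor, had a ratio of 8.12 (5.86 to 11.6), Il1r2, the decoy receptor for interleukin 1, 8.14 (4.76 to 15.3) and the Wnt ligand Wnt2 5.64 (2.41 to 17.4). Ebf2 had a ratio of 3.21, the sialic acid enzyme gene Cmah 5.37 and the matrix gene Fndc1 5.32. The adhesion molecule Opcml was at 1347 CPM in carriers and 287 CPM in non-carriers, a ratio of 4.69 (3.86 to 5.75).

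The classic surface and matrix markers differed less. Cd34, the sialomucin used to sort such cells, was at 1161 CPM in carriers and 344 CPM in non-carriers (3.38, 2.83 to 4.07). Ly6c1 had a ratio of 3.04, Cd248 3.30 and Ly6a, the stem cell antigen Sca-1, 2.17 (2.00 to 2.37). Among the matrix genes Fbn1, the fibrillin of microfibrils, had a ratio of 3.54, Mfap5 3.13, Pcolce2 2.65 and Clec3b 2.03. Igfbp6 had a ratio of 2.28 and Igfbp5 2.44, both binding proteins of insulin-like growth factors. Has1, Ugdh, Gfpt2, Adgrd1, Axl and Procr had ratios between 2.34 and 3.06. Limch1, Dact2, Uchl1 and Stmn4 had 0 UMIs in non-carriers and were at least 13.7, 2.35, 2.63 and 1.26-fold higher in carriers, taking 3 counts over the group as the floor. Tnfaip6, a hyaluronan-binding protein, was the gene that was lower, at 812 CPM in carriers and 1634 CPM in non-carriers (0.497, 0.457 to 0.541). Bmp7 at 1.96 (0.946 to 4.90) and the alarmin Il33 at 1.41 (0.930 to 2.26) were the others.

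**Figure D4:**
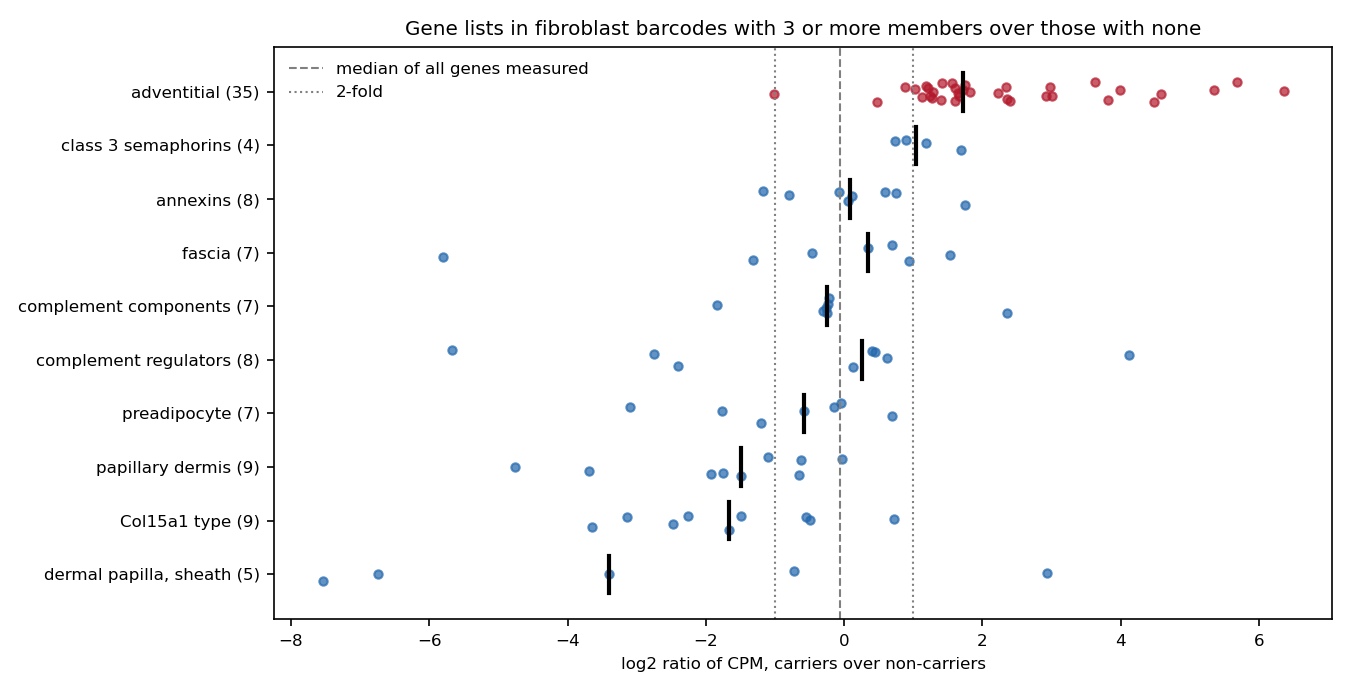
Log2 ratio of CPM in carriers over non-carriers for the measured genes of 10 lists, with 0.5 counts added (points, genes; black bars, list medians; dashed line, median of all 10786 genes; dotted lines, 2-fold). The adventitial genes have a median of 1.71, the Col15a1-type list -1.66 and the dermal papilla and sheath list -3.40.

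Genes of the other widespread fibroblast state, marked by Col15a1 and basement membrane collagen, went the other way. Of 9 genes 0 were 2-fold higher and 6 were 2-fold lower in carriers, with a median log2 ratio of -1.66. Col15a1 was at 68.2 CPM in carriers and 324 CPM in non-carriers (0.211, 0.173 to 0.258). Penk, the enkephalin precursor, had a ratio of 0.0798, the lipoprotein gene Apoe 0.113, and the basement membrane chains Col4a1 and Col4a2 0.357 and 0.316. Ifi205, the most abundant of the list, was at 1.65 (1.40 to 1.97). Cxcl12, a chemokine that Dpp4 cleaves, was at 177 CPM in carriers and 980 CPM in non-carriers (0.180, 0.161 to 0.202). Ccl11, another chemokine cut by Dpp4, was at 397 CPM in carriers and 392 CPM in non-carriers (1.01, 0.857 to 1.21), and of the 4 such chemokines measured 0 were higher and 1 lower.

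Papillary and dermal papilla genes were mostly lower in carriers, while the reticular, preadipocyte and fascia lists were mixed. In the papillary list 0 of 9 genes were 2-fold higher and 6 lower, among them the transcription factor Trps1 at 0.0367 (0.0309 to 0.0437), Col23a1 at 0.0776, the Wnt inhibitor Apcdd1 at 0.358 and Twist2 at 0.469. Cd302, the most abundant of the list, was at 0.651 (0.550 to 0.776). In the dermal papilla and sheath list 3 of 5 were lower. These were Crabp1 at 0.0958 and the contractile genes Acta2 at 0.00519 and Tagln at 0.00917, while Rspo3 had 0 UMIs in non-carriers and a bound of 1.27. In the reticular list 2 of 4 were higher and 1 lower, with a median log2 ratio of 0.22, or 0.10 with genes at 0 set to the floor. Mgp, an inhibitor of calcification, was at 46.3 CPM in carriers and 659 CPM in non-carriers (0.0702), and the crosslinker Tgm2 was higher at 2.29 (1.27 to 4.59), while the cadherin gene Cdh2 had 0 UMIs in non-carriers and a bound of 1.65. Preadipocyte genes had 0 of 7 higher and 3 lower, which were Icam1 (0.294), Fabp4 (0.120) and Cebpa (0.449), and Ebf1, the most abundant, was at 1873 CPM in carriers and 1158 CPM in non-carriers. Of 7 fascia genes, with a median log2 ratio of 0.35, Ccn3 was higher at 3.04 (1.65 to 6.35), Fmod and Cilp were lower at 0.0179 and 0.403, and Gpx3, the most abundant, was at 1.92 (1.77 to 2.10).

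The relatives and partners of the genes were mixed. Of the CAP relatives of Pi16 with enough UMIs, Crispld1 was at 6.33 (2.46 to 23.3), Glipr2 at 1.97 (1.19 to 3.54) and Crispld2 at 0.244 (0.175 to 0.349). Of 6 genes of the dipeptidyl peptidase family and Dpp4 partners 0 were 2-fold higher and 0 lower, and Fap, the closest relative of Dpp4, was at 149 CPM in carriers and 158 CPM in non-carriers (0.946, 0.725 to 1.26). Of 4 other class 3 semaphorins Sema3b at 3.62 (1.41 to 13.3) and Sema3a at 2.56 (0.991 to 9.43) were higher, from 4 UMIs each in non-carriers, and Sema3d, the most abundant, was at 1.94 (1.10 to 3.76). Sema3e was at 1.73 (1.01 to 3.27), and the median log2 ratio of the 4 was 1.04. Among 7 semaphorin receptors Plxna1 was higher at 2.21 (1.01 to 6.04), and Nrp2 and Plxnd1, a pair of receptor chains, were lower at 0.125 (0.0811 to 0.201) and 0.229 (0.132 to 0.431). Nrp1, the most abundant, was at 0.616. Of 8 annexins Anxa1 was higher at 3.37 (2.81 to 4.09), Anxa11 lower at 0.451 (0.312 to 0.675), and Anxa2 was at 1.52 and Anxa5 at 0.578.

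Of 8 complement regulators 1 was 2-fold or more higher and 3 were lower. Cd55b, the copy of Cd55, had 345 UMIs in carriers and 0 in non-carriers and was at least 2.88-fold higher. Among the lower ones, Cd59a was at 0.158 (0.0704 to 0.415) and Vtn at 0.0195 (0.0115 to 0.0329). Serping1, the inhibitor of the first component and the most abundant regulator, was at 1892 CPM in carriers and 1735 CPM in non-carriers (1.09, 1.01 to 1.18). Of 7 complement components C2 was lower at 0.280 and C3 was at 0.862 (0.810 to 0.919). C1qa, a macrophage gene, had 0 UMIs in non-carriers and a bound of 0.852. Cd46, another regulator, was at 2.28 (0.399 to 91.1) from 1 UMI in non-carriers and was not among the calls. Adgre5, the receptor of Cd55, was at 4.66 CPM in carriers and 25.4 CPM in non-carriers (0.184).

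Cd55b had 1035 UMIs in fibroblast barcodes and was detected in 11.6% of them, or 4.85 UMIs for every 100 of Cd55. It was highest in subset 1, at 83.9 CPM and 10.3 UMIs for every 100 of Cd55, and at 0 in subsets 9 and 10. Of the 31-base stretches of the longest Cd55 transcript (3133 bases), 14.8% also occur in Cd55b and 0 of those in its last 500 bases do. How the counting treated reads that fit both genes is not given in the sources used here, so the split between them is uncertain.

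Over all genes with 100 or more UMIs in both groups together, the largest ratios outside the 5 genes repeated part of the adventitial list (Limch1, Akr1c18, Smpd3 and Efhd1). The retinoic acid enzyme gene Aldh1a3 was at 40.9, with a wide interval (7.33 to 1616) from 1 UMI in non-carriers. Ano3, Gm8739, Lurap1l, the retinol dehydrogenase gene Dhrs9, the cadherin gene Cdh9, Bmp8a and the GABA receptor gene Gabrb2 had 0 UMIs in non-carriers and were at least 8.03, 6.99, 6.23, 5.58, 4.99, 3.76 and 3.73-fold higher. The lowest ratios were those of Coch (0.00631), Trps1, the anion transporter gene Slc26a7 (0.0381), the nuclear receptor gene Nr2f2 (0.0468), Sparcl1 (0.0538), the calcium channel gene Cacna1c (0.0569), the protease gene Pappa2 (0.0639) and Tmem176a (0.0647). Coch is also a leading gene of subset 10, which holds 23.9% of the non-carriers.

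Activation, cycling and handling genes gave no excess in carriers. Of 7 activated fibroblast genes 0 were higher and 2 lower, the same Acta2 and Tagln, and Postn, the most abundant, was at 0.840 (0.713 to 0.997). The 1 cycling gene with enough UMIs, Pcna, was at 0.563 (0.386 to 0.855). Early genes of tissue dissociation summed to 9760 CPM in carriers and 16239 CPM in non-carriers, with 0 of 11 at 2-fold higher and the heat shock genes Hspa1a at 0.334 and Hspa1b at 0.317. Fos, the most abundant of them, was at 0.826 (0.766 to 0.891). Their part in the other differences was not tested.

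Markers of other cells moved with the groups. The 6 fibroblast markers summed to 23583 CPM in carriers and 26597 CPM in non-carriers, with 0 of 6 past 2-fold. The 6 pericyte or smooth muscle markers summed to 7.13 CPM in carriers and 265 CPM in non-carriers, with 2 of 2 measured genes lower, and 1 of the 71 non-carriers was in the pericyte or smooth muscle-like class. The suprabasal keratinocyte markers summed to 289 CPM in carriers and 87.3 CPM in non-carriers and the skeletal muscle markers to 245 and 39.4 CPM. Basal keratinocyte markers summed to 196 CPM in carriers and 98.6 CPM in non-carriers. Hair follicle keratinocyte markers went the other way, at 33.9 and 124 CPM. Their part in the ratios was not tested. Of the 71 non-carriers 69 were in fibroblast-like clusters. With only barcodes of these clusters, a choice made after seeing the data, the random thinning was drawn anew. It then gave 65 non-carriers, and 28 of the 35 adventitial genes were 2-fold or more higher. The part of the new draw in these changes was not tested.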

How the data were processed

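The values deposited by the authors are unnormalized UMI counts of the pooled RNA library, made with Cell Ranger (version not given in the sources used here) on mm10, per the submitters' processing notes. The hashtag library was not analysed here, and 0 value columns were left unused. The 5 genes, the 19 gene lists and the 20 marker lists were chosen with earlier results of these data known.

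Of 8367 barcodes (83725065 UMIs), 240 were removed by the gene and mitochondrial filters. Counts were summed per group and given as CPM. For clustering, counts were scaled to 10000, log transformed and reduced to 2000 variable genes without the 5 members, 30 components and 15 neighbours, with Leiden resolution 1 (Scanpy 1.11.5, leidenalg 0.10.2, igraph 0.11.9). Python 3.11.15 was used with matplotlib 3.10.9, scikit-learn 1.9.0, pandas 2.3.3, SciPy 1.17.1 and NumPy 2.4.6. Doublets were called by scrublet at an expected rate of 6% and kept, and clusters in which most barcodes were called stayed unnamed, a choice made after seeing the data. A cluster took a name with the ending -like from the marker lists, so names were rebuilt here. Where a group had 0 UMIs, bounds use a floor of 3.

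The text names the 5 members, list genes that were 2-fold or more in either direction in carriers or most abundant in their list, the 12 highest and 8 lowest genes with 100 or more UMIs, the 8 genes most like Pi16 and the 5 leading genes of each subset described. Glipr2, Anxa2, Anxa5, Ebf2 over the subsets and a few other values outside this rule were chosen after they were seen. A few genes that the rule names are not reported here. Positions and transcripts are from the GENCODE annotation of GRCm38 and promoters from RefSeq. Ratios and thinning were tested on simulated data. Alternatives were other thinning depths, thresholds, resolutions, filters, equal weights and removal of doublets.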

Additional observations from a re-analysis of the deposited data

Results flagged for a closer look

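The 240 barcodes that the filters removed, which enter no comparison, held UMIs of all 5 genes. They had 28 UMIs of Pi16, or 106 CPM against 939 CPM in the analysed barcodes, and 33 UMIs of Sema3c, or 125 CPM against 455 CPM. Anxa3 had 18 UMIs there (68.0 CPM against 609 CPM), Cd55 had 7 (26.5 CPM against 295 CPM) and Dpp4 had 4 (15.1 CPM against 335 CPM). Each is above the 3 counts that a count of 0 allows.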

How the results depend on the processing

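Some results held under every alternative run for them. All 5 genes stayed 2-fold or more higher in fibroblast barcodes, in level and in thinned share. In all 10 pairs each gene stayed more frequent with the other than without it. All 5 genes also stayed 2-fold or more frequent with the others. The ratio of fibroblast to other barcodes was lowest for Sema3c, at 3.41, but its direction was fixed by the choice of genes. Shares and counts have no direction that could reverse, so reversal was not tested for them. Of the alternative values for the main counts and shares, 6 were classed as moved, given below, and 55 as the same. Among the other values, 72 were classed as moved and 166 as the same. Genes 2-fold or more higher in carriers numbered 1239, and 759 after thinning to 2500 UMIs. Those lower numbered 1117, and 703 after thinning to 2500 or 2292 with a minimum of 10 UMIs per gene, which admits more genes. The subset with the highest levels held 7.95% of fibroblast barcodes, but 20.6% at resolution 0.5, 9.03% with the 5 genes among the variable genes and 13.7% without called doublets; the cause was not tested. Subsets with all 5 genes under 50% held 13.02% to 13.6%. The share with all 5 genes was 29.3% to 71.8%, non-carriers made up 0.883% to 5.65%, and 26 to 33 of the 35 adventitial genes were 2-fold higher. Alternatives that changed the fibroblast barcodes or the depth drew the random thinning anew. No paired analysis was possible because there is 1 library and no replicate. The 71 non-carriers hold 355000 thinned UMIs, which limits their ratios.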
